A study of Mus musculus with 12 samples.

Results

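Osteoclasts are large cells that resorb bone, and RANK signaling is the pathway that makes them. A set of 10 genes of this kind was followed here, taken by name from the deposited expression table: Tnfrsf11a (the receptor RANK), Tnfsf11 (its ligand RANKL), Tnfrsf11b (osteoprotegerin, a decoy receptor), the transcription factor Nfatc1, and the osteoclast genes Acp5, Ctsk, Mmp9, Dcstamp, Oscar and Calcr. All 10 were present among the 24421 genes of the table, and all 10 were among the 18948 genes tested. Bulk RNA-seq values were available for 12 libraries of mouse cells or tumors. Of these, 3 were mesenchymal stem cells (MSCs) of p53 wildtype mice (WT MSC), 3 were MSCs of p53 knockout mice (KO MSC) and 6 were sarcomas from bone or bone marrow of p53 knockout mice. The MSCs were freshly isolated marrow cells, sorted for the leptin receptor (LepR) and CD140a and against CD45, Ter119 and CD31. The tumors carry the cell type label tumor cell, but the protocol gives only an extraction with TRIzol and no sort. The labels give neither the ages of the mice, the deleted part of Trp53, the promoter of any Cre, nor whether libraries came from separate animals.

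Osteoclasts form by fusion of precursors of the monocyte and macrophage lineage, which carry CD45. RANKL, made by stromal cells and osteoblasts, binds RANK on the precursor and, together with CSF1 acting on its receptor CSF1R, starts a program led by NFATc1. Osteoprotegerin captures RANKL and so limits the process. In the marrow, LepR+ stromal cells and the cells they give rise to are among the sources of both RANKL and CSF1. The sort used for the MSCs removes cells with CD45, while nothing in the labels says that such cells were removed from the tumors.

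The main values were the authors' variance-stabilized, batch-adjusted log2 values, called stabilized values below. They flatten to a floor where a gene has few or no reads, so a difference from the floor understates a change, and the depth behind them is unknown. Exactly shared floor values placed WT_MSC 1, the library labelled KO_MSC 1 and the first 3 tumors (1 to 3) in batch 1, and all other libraries in batch 2; the labels name no batch, and the names are used here only for these sets. A gene at its floor can therefore have a different value in each batch. Trp53, the deleted gene, had values of 9.96, 10.04 and 10.61 in WT MSCs. Its values under the labels KO_MSC 1, 2 and 3 were 10.49, 9.76 and 6.96, so only the last of these was clearly below WT MSCs. In the tumors Trp53 lay between 6.79 and 9.16. Since the deleted part is not given, reads outside it would check nothing, but KO MSC results below refer to libraries by their labels. WT_MSC 1 and the library labelled KO_MSC 1, the only MSCs of batch 1, stood apart, with 3730 and 2632 genes at the floor against 9251 to 12336 in the other 10 libraries. Across genes, the KO MSC libraries correlated at 0.797 to 0.930, against 0.939 to 0.974 among WT MSCs and 0.842 to 0.949 among tumors.

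Promoter sequences were shown for the receptor and for 3 osteoclast genes whose values moved together across tumors (below), because NFATc1, AP-1, PU.1 and MITF are the factors known to act on osteoclast genes. RefSeq promoters of build GRCm38.p6 matched 6 of the 10 genes, at 9 start sites. Entries for Mmp9, Dcstamp, Tnfrsf11b and Nfatc1 were not used here. Each window ends at the base before the annotated start, is written 5′ to 3′ on the gene's strand, and has in capitals each match, on either strand, to GGAAA (NFAT core), TGANTCA (AP-1), GAGGAA (PU.1 core), CACGTG or CATGTG (MITF E-boxes). Matches of GGAAA and GAGGAA can share bases.
Tnfrsf11a, chr1:105780473-105780717, plus strand: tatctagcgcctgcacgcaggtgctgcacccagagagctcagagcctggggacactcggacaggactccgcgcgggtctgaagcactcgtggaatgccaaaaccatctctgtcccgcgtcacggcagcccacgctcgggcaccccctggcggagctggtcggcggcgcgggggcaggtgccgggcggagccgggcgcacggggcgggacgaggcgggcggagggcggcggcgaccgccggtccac
Acp5, chr9:22130609-22130848, minus strand: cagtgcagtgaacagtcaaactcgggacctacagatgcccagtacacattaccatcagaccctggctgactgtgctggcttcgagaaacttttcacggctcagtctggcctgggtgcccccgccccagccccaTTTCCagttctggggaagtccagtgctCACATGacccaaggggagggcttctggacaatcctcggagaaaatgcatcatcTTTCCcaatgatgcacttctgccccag
Ctsk, chr3:95498960-95499209, plus strand: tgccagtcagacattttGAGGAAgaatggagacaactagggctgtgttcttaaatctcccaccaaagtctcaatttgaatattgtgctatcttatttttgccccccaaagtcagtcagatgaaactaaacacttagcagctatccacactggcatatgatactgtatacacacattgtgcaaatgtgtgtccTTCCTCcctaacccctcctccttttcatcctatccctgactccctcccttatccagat
Oscar, chr7:3616158-3616407, minus strand: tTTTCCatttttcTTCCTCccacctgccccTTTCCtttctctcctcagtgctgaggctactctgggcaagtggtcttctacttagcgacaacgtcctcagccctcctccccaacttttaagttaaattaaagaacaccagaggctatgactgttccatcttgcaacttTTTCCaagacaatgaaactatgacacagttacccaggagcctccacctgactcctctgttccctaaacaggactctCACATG
The Oscar window held 3 matches of GGAAA, 1 of GAGGAA and 1 of CATGTG. The Acp5 window held 2 of GGAAA and 1 of CATGTG, the Ctsk window 2 of GAGGAA, and the Tnfrsf11a window none. The windows of 2 further Acp5 starts in RefSeq, chr9:22135747-22135996 and chr9:22131866-22132115, held 1 match of GGAAA each and none of the other motifs. Of 32851 RefSeq promoter windows of up to 250 bases, 55.6% held GGAAA, 23.3% GAGGAA, 12.3% CATGTG, 6.75% TGANTCA and 6.02% CACGTG. A match is a description of the letters and not a binding site.

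RANK was the only member whose stabilized value in every tumor was above all MSC libraries of both batches. Within batches, Ctsk, Mmp9, Dcstamp and Oscar were also above every MSC in all tumors (below). Tnfrsf11a lies on chromosome 1 (105780718 to 105847981, plus strand, build GRCm38), and its stabilized values were 4.96, 6.04 and 6.04 in WT MSCs and 4.79, 6.04 and 6.04 in KO MSCs. In tumors 1 to 6 they were 9.31, 6.85, 8.14, 9.13, 8.11 and 7.77. Every tumor was above every MSC library. The 4 MSC libraries of batch 2 were at the gene's floor, and WT_MSC 1 and KO_MSC 1 stood 1.50 and 1.33 above their batch's floor. Height above the floor reached 5.85, 3.39 and 4.68 in tumors 1 to 3 and 3.08, 2.07 and 1.73 in tumors 4 to 6. On the stabilized scale RANK rose by 2.59 ± 0.58 log2 units (SE) in tumors against KO MSCs (adjusted p = 0.0288, limma, Benjamini-Hochberg, n = 6 and 3). Against WT MSCs it rose by 2.53 ± 0.54 (adjusted p = 0.00832, limma, n = 6 and 3).

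The direction held within each batch, where RANK in a tumor exceeded the mean of its batch's MSCs by 1.73 to 4.43. In batch 2 alone, with 2 MSC libraries of a group and 3 tumors, neither call passed (2.29 in each comparison). Batch 1 holds 1 library of each MSC group, and the differences there were 3.31 against KO and 3.14 against WT. Neither call passed with heights above the floor in place of stabilized values, in a fit over 7455 genes. The differences were 3.02 (adjusted p = 0.163, limma) against KO and 2.97 (adjusted p = 0.107, limma) against WT. The call against KO MSCs was also lost without the library labelled KO_MSC 1 (2.17, adjusted p = 0.166), KO_MSC 2 (2.8, 0.0676), tumor 3 (adjusted p = 0.0535) or tumor 5 (0.0521), and that against WT MSCs without WT_MSC 1 (2.17, adjusted p = 0.0568).

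**Figure D1:**
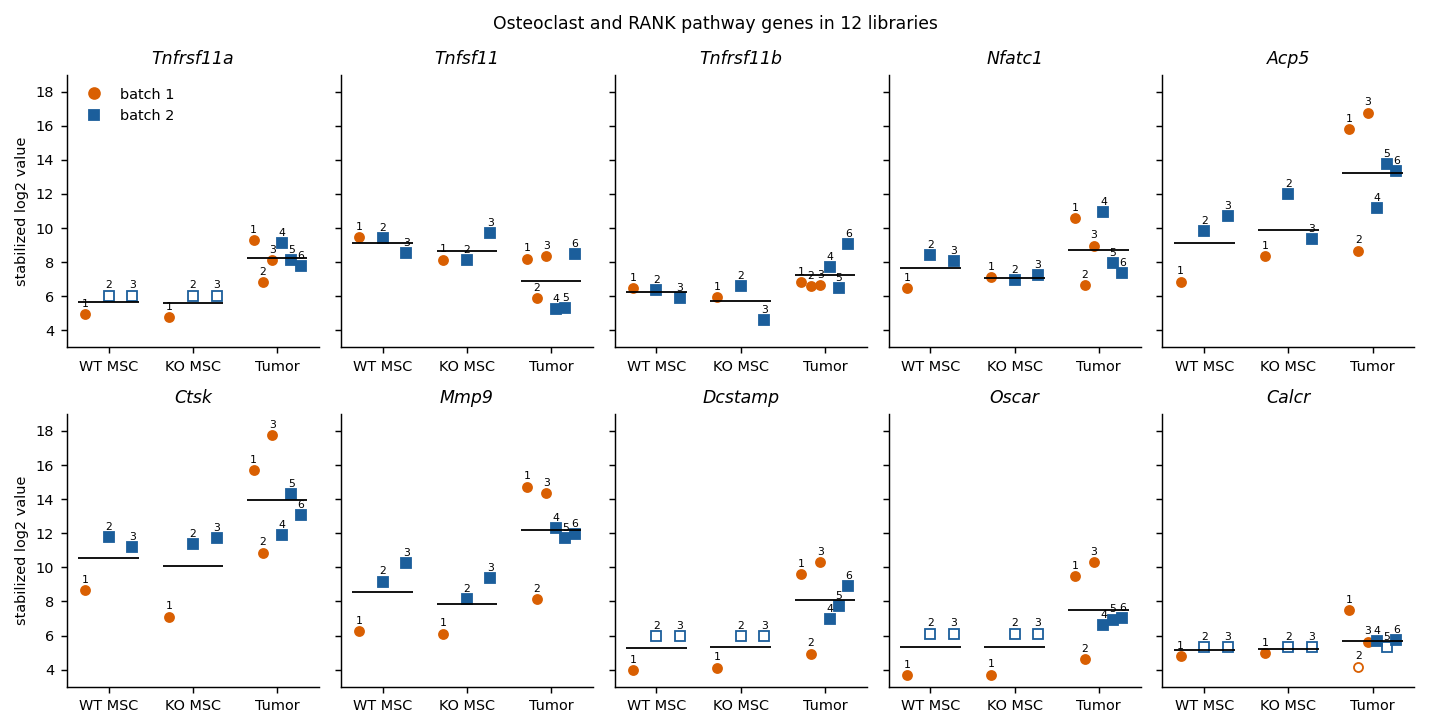
Stabilized log2 value (y axis) of each of the 10 genes in every library, by group; numbers are replicate numbers, circles are batch 1, squares are batch 2, open symbols are values at the gene's floor and lines are group means. Tnfrsf11a is above every MSC library in all 6 tumors, while Acp5, Ctsk, Mmp9, Dcstamp and Oscar reach their highest values in tumors 1 and 3.

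Across all genes tested, 4.98% were called in tumors against KO MSCs (2.7% higher, 2.28% lower) and 21.3% against WT MSCs (10.4% higher, 10.9% lower). RANK was the 1 member called in each comparison, and it was the 1 member whose tumors all lay above all KO MSCs, an order found in 8% of genes. With 10 members, a count of 1 is near these shares, so the counts are no result about the set. Of the 10 members, 9 had a higher mean in tumors than in KO MSCs, with a median difference of 2.39 against 0.04 over all genes, and 6 had an unadjusted p under 0.05 in the same limma fit, against 26.5% of all genes. Against WT MSCs the counts were also 9 and 6, the latter against 37.2% of all genes, and the median was 2.36 against -0.06 over all genes. These comparisons share the tumor libraries, so their likeness is not a result. In bulk RNA, a larger number of cells that express a gene and more RNA per cell cannot be told apart.

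**Figure D2:**
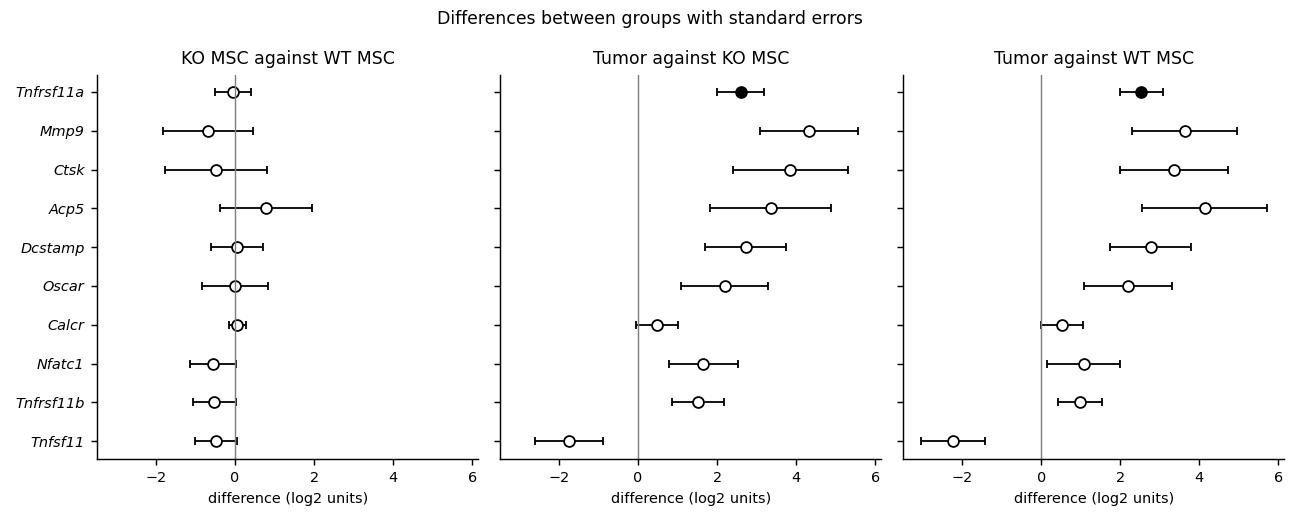
Difference between group means in log2 units (x axis) with its standard error for each gene and comparison; filled points passed an adjusted p under 0.05 (limma). Tnfrsf11a is filled in both tumor comparisons, and Tnfsf11 is the only 1 of the 10 genes left of 0 in both.

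The ligand had a lower mean in tumors than in MSCs, but neither difference passed the test. Tnfsf11 (chromosome 14, 78277445 to 78308043, minus strand) had stabilized values of 9.47, 9.43 and 8.53 in WT MSCs and 8.15, 8.14 and 9.70 in KO MSCs. The tumors stood at 8.21, 5.88, 8.35, 5.26, 5.30 and 8.49. Tumors 1, 3 and 6 were inside the MSC range, and tumors 2, 4 and 5 were more than 2 log2 units below its lowest library. All tumors were below all WT MSCs, with a difference of -2.23 ± 0.82 (adjusted p = 0.0772, limma, n = 6 and 3); the groups were ordered in this way, without overlap, in 12.3% of all genes. Against KO MSCs the difference was -1.75 ± 0.85 (adjusted p = 0.211, limma), and the groups overlapped. Restricting the fit to genes with a group mean of at least log2 of 100 gave an adjusted p of 0.0439 against WT MSCs, at the same difference.

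The decoy receptor had a higher mean in tumors, and its differences did not pass the test. Tnfrsf11b (chromosome 15, 54250619 to 54278484, minus strand) had values of 6.46, 6.38 and 5.87 in WT MSCs, 5.94, 6.62 and 4.59 in KO MSCs, and 6.85, 6.60, 6.66, 7.69, 6.49 and 9.07 in the tumors. The lowest tumor, at 6.49, was just above the highest WT MSC, at 6.46, and tumor 6 was the highest library. The difference was 0.99 ± 0.55 against WT MSCs (adjusted p = 0.213, limma) and 1.51 ± 0.66 against KO MSCs (adjusted p = 0.176, limma). Tnfrsf11a and Tnfrsf11b were the 2 members whose tumors all lay above all WT MSCs, an order found in 12.9% of genes. A count of 2 members is near that share and is no result about the set.

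The balance of ligand and decoy was described as Tnfsf11 minus Tnfrsf11b on the log2 scale within each library, with no test. It was 3.01, 3.04 and 2.66 in WT MSCs (2.91 ± 0.21, SD, n = 3) and 2.21, 1.52 and 5.11 in KO MSCs (2.95 ± 1.91, SD, n = 3). In the tumors it was 1.36, -0.73, 1.70, -2.43, -1.19 and -0.58 (-0.31 ± 1.57, SD, n = 6). Leaving out 1 tumor moved the tumor mean between -0.71 and 0.11, so its sign is not settled, and leaving out 1 library moved the KO MSC mean between 1.86 and 3.66. No tumor reached the lowest WT MSC, and tumor 3 was above the library labelled KO_MSC 2. The 3 tumors of batch 2 were all below 0, and the 3 tumors of batch 1 had a mean of 0.78.

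**Figure D3:**
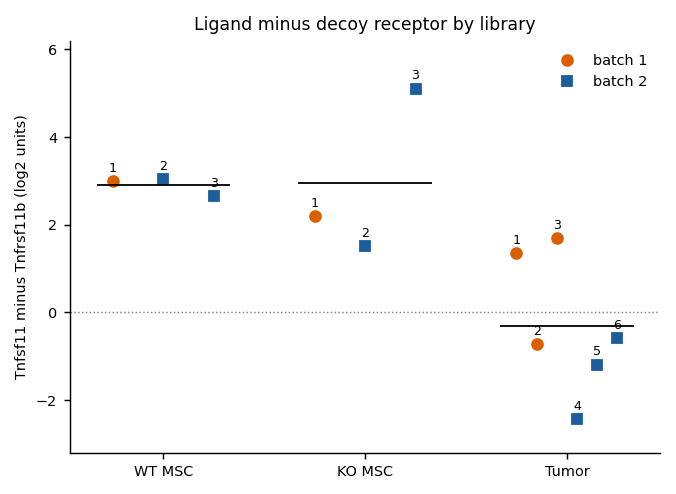
Tnfsf11 minus Tnfrsf11b in log2 units (y axis) in every library by group, with circles for batch 1, squares for batch 2 and lines for group means. WT MSCs lie between 2.66 and 3.04, KO MSCs spread from 1.52 to 5.11, and tumors from -2.43 to 1.70.

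Nfatc1, the master transcription factor of osteoclast formation, is on chromosome 18 (80606205 to 80713071, minus strand). Its values were 6.49, 8.41 and 8.06 in WT MSCs, 7.11, 6.93 and 7.22 in KO MSCs, and 10.58, 6.66, 8.97, 10.93, 7.93 and 7.36 in the tumors. Tumors 1 and 4 were above all MSCs by over 2 log2 units and tumor 3 by less. Tumors 2, 5 and 6 were inside the MSC range. The differences, 1.65 ± 0.87 against KO MSCs (adjusted p = 0.240, limma) and 1.08 ± 0.92 against WT MSCs (adjusted p = 0.415, limma), did not pass.

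Acp5, Ctsk, Mmp9, Dcstamp and Oscar had their 2 highest values in tumors 1 and 3. Acp5 (tartrate-resistant acid phosphatase, the classical osteoclast stain; chromosome 9, 22126727 to 22135711, minus strand) had values of 6.86, 9.81 and 10.68 in WT MSCs and 8.36, 11.99 and 9.34 in KO MSCs. The tumors stood at 15.79, 8.68, 16.77, 11.18, 13.75 and 13.32. Tumors 1, 3, 5 and 6 were above every MSC library and tumors 2 and 4 were not. The difference was 3.35 ± 1.53 against KO MSCs (adjusted p = 0.188, limma) and 4.14 ± 1.58 against WT MSCs (adjusted p = 0.0881, limma). Exons of Acp5 overlap 6530413G14Rik on the other strand, and the library kit does not mark strand, so reads of these genes cannot be told apart.

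Ctsk (cathepsin K, the protease that digests bone collagen; chromosome 3, 95499256 to 95509362, plus strand) had values of 8.69, 11.78 and 11.20 in WT MSCs and 7.11, 11.37 and 11.73 in KO MSCs. In the tumors it stood at 15.69, 10.87, 17.77, 11.87, 14.28 and 13.06. Every tumor but tumor 2 was above all MSCs, although tumor 4 exceeded the highest MSC of its batch by only 0.09. The differences were 3.85 ± 1.45 against KO MSCs (adjusted p = 0.141, limma) and 3.37 ± 1.36 against WT MSCs (adjusted p = 0.104, limma).

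Mmp9 (a gelatinase secreted by osteoclasts and by neutrophils; chromosome 2, 164940780 to 164955850, plus strand) came closest to the threshold after RANK in tumors against KO MSCs. It had values of 6.26, 9.17 and 10.27 in WT MSCs, 6.11, 8.14 and 9.36 in KO MSCs, and 14.73, 8.12, 14.34, 12.32, 11.71 and 11.97 in the tumors. Tumor 2 was the 1 tumor inside the MSC range. The difference was 4.33 ± 1.24 against KO MSCs (adjusted p = 0.0666, limma) and 3.63 ± 1.32 against WT MSCs (adjusted p = 0.0747, limma). The log2 of the summed level of 10 neutrophil markers lay between 9.19 and 12.50 in tumors and between 11.22 and 17.30 in MSCs. The highest level was in the library labelled KO_MSC 1, with 13.52 and 11.89 in KO_MSC 2 and 3. Of these markers 0 rose and 5 fell against KO MSCs (limma), where 2.7% of all genes rose and 2.28% fell. Against WT MSCs 0 rose and 2 fell, beside 10.4% and 10.9% of all genes. The part of neutrophils in the Mmp9 values was not tested.

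Dcstamp and Oscar were at their floor in the 4 MSC libraries of batch 2. Dcstamp, needed for the fusion of precursors (chromosome 15, 39745930 to 39760938, plus strand), stood 0.43 and 0.58 above the floor in WT_MSC 1 and KO_MSC 1. In tumors 1 to 6 it stood 6.07, 1.41, 6.76, 0.98, 1.76 and 2.92 above the floor. Oscar, a costimulatory receptor of osteoclasts (chromosome 7, 3609813 to 3616157, minus strand), stood 0.31 and 0.32 above the floor in the same MSC libraries. Its heights in the tumors were 6.09, 1.26, 6.92, 0.50, 0.82 and 0.92. Every tumor was above every MSC of its own batch for both genes. On the stabilized scale the Dcstamp difference was 2.72 ± 1.02 against KO MSCs (adjusted p = 0.140, limma) and 2.77 ± 1.04 against WT MSCs (adjusted p = 0.0820, limma). For Oscar it was 2.19 ± 1.10 (adjusted p = 0.221, limma) and 2.19 ± 1.11 (adjusted p = 0.172, limma).

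Calcr, the calcitonin receptor of mature osteoclasts (chromosome 6, 3685680 to 3764714, minus strand), was at the floor in 4 of 6 MSC libraries and in tumors 2 and 5. Its heights above the floor were 0.61 in WT_MSC 1, 0.77 in KO_MSC 1, and 3.29, 1.46, 0.35 and 0.40 in tumors 1, 3, 4 and 6. Tumor 1 was the highest library, and tumor 2 was below the MSCs of its batch. The differences were 0.47 ± 0.53 against KO MSCs (adjusted p = 0.606, limma) and 0.52 ± 0.54 against WT MSCs (adjusted p = 0.503, limma).

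Leaving out 1 tumor changed which of these genes passed. Tumor 2 had the lowest stabilized value of all tumors for each of the 6 osteoclast genes, but floors differ between batches. By height above the floor, tumor 2 was above tumor 4 for Dcstamp (1.41 against 0.98). For Oscar (1.26) it was above tumors 4, 5 and 6 (0.50, 0.82 and 0.92), and for Calcr tumors 2 and 5 were both at the floor. Without tumor 2, Mmp9 (5.14, adjusted p = 0.0138) and Dcstamp (3.34, adjusted p = 0.0432) joined RANK against KO MSCs in limma. Against WT MSCs, Acp5 (5.05, adjusted p = 0.0213), Dcstamp (3.39, adjusted p = 0.0161) and Mmp9 (4.45, adjusted p = 0.0132) joined it. In these fits without tumor 2, 781 and 3607 of the 18948 genes passed. Giving each library a weight for its own spread, in place of equal weights, called 4 members against KO MSCs, among 4821 of the 18948 genes, and 5 against WT MSCs, among 6821.

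Within batches, where a batch shift cancels, Ctsk, Mmp9, Tnfrsf11a, Dcstamp and Oscar were higher in every tumor than in every MSC of the same batch. These are 5 of 10 members, against 7.35% of all genes. None of the 10 was lower in this way, against 4.68% of all genes. Relative to the MSC mean of its batch, Ctsk was higher by 0.35 to 9.87, Mmp9 by 1.93 to 8.54, Acp5 by 0.73 to 9.16, Dcstamp by 0.90 to 6.25 and Oscar by 0.50 to 6.61. The top values of all of these came from tumors 1 and 3, and the lowest from tumor 2 (Mmp9, Dcstamp) or tumor 4 (Ctsk, Acp5, Oscar). The batches have unlike baselines, since the MSC means of batch 1 were below those of batch 2. They were 7.90 against 11.52 for Ctsk, 6.19 against 9.23 for Mmp9 and 7.61 against 10.45 for Acp5. For Dcstamp they were 4.05 against 5.96 and for Oscar 3.70 against 6.12.

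**Figure D4:**
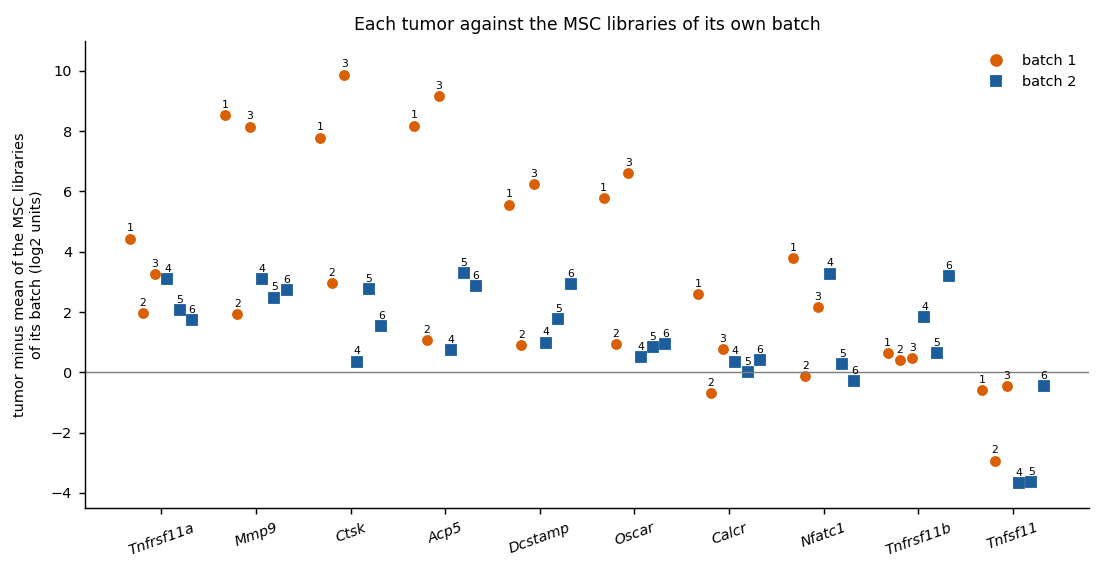
Each tumor's stabilized value minus the mean of the MSC libraries of its batch, in log2 units (y axis), for the 10 genes; numbers are tumor numbers, circles are batch 1 and squares are batch 2. For Mmp9, Ctsk, Acp5, Dcstamp and Oscar, tumors 1 and 3 stand between 5.56 and 9.87, while the other 4 tumors stand at or below 3.30. The subtracted MSC mean is lower in batch 1 than in batch 2 for each of these genes, so the batches have unlike baselines.

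Members were compared with each other by Pearson's r over the 12 libraries, a description in which libraries share groups and batches. Acp5, Ctsk, Mmp9, Dcstamp and Oscar correlated with each other at 0.90 to 0.96. Tnfrsf11a correlated with Mmp9 at 0.91 and with the other 4 at 0.78 to 0.82, and Nfatc1 with these 5 at 0.55 to 0.77. Tnfsf11 had values between -0.54 and 0.11 with the other 9 members. These values include the step from MSCs to tumors, in which the mean of Tnfsf11 was lower and those of the other 9 higher. Among tumors alone, the 3 highest stabilized Tnfsf11 values were in tumors 6, 3 and 1, and tumors 3, 1 and 6 were also the 3 highest for Dcstamp and Oscar. For Oscar this depends on floors that differ between batches. By height above the floor, Oscar was higher in tumor 2 (1.26) than in tumor 6 (0.92). For Acp5 and Ctsk the 3 highest stabilized values were in tumors 3, 1 and 5, and for Mmp9 in tumors 1, 3 and 4.

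Among 9590 genes with a mean of at least log2 of 100, the closest pattern to Dcstamp was that of Atp6v0d2 (r = 0.99), followed by Ocstamp (0.99) and Slc9b2 (0.98). Oscar was closest to Mt3 (0.99) and Ocstamp (0.98), Ctsk to Mt3 (0.97) and Ocstamp (0.95), and Acp5 to Atp6v1a (0.97) and Dcstamp (0.96). Mmp9 was closest to Cgnl1 (0.97) and Mt3 (0.96). RANK was closest to Cenpb (0.97) and Cryab (0.96), and Nfatc1 to Pgam2 (0.95) and Cd276 (0.92). Tnfsf11 was closest to S1pr1 (0.98), Slc2a10 (0.98) and Wnt5b (0.96), Tnfrsf11b to Kank3 (0.97), and Calcr to Gbas (0.97).

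Between MSC genotypes no member passed the test. With limma, 0 of 10 members and 0 of 18948 genes (0%) passed in KO against WT MSCs, and 1637 genes but no member had an unadjusted p under 0.05. Member differences ran from -0.69 ± 1.14 (Mmp9) to 0.78 ± 1.17 (Acp5), and adjusted p-values from 0.818 to 1. No member had groups without overlap, against 15.2% of all genes. Trp53 was not clearly below WT MSCs in the libraries labelled KO_MSC 1 and 2. As the deleted part is not given, this does not check their labels. In the fit without these 2 libraries, Tnfrsf11b was lower by 1.65 log2 units. That fit compares 1 library, KO_MSC 3, with 3 and assumes that it varies as WT MSCs do.

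Of 10 CSF1 and costimulation genes, which act beside RANK in precursors, 4 rose and 0 fell against KO MSCs in limma (2.7% and 2.28% of all genes did so): Tyrobp (the adaptor DAP12) by 6.54, Fcer1g (the Fc receptor gamma chain) by 5.15, Trem2 by 4.81 and Csf1r by 4.40 log2 units. The list's median difference was 1.82, against 0.04 for all genes. Against WT MSCs 5 rose, the same 4 genes (by 7.14, 5.90, 4.79 and 4.37) and Sirpb1a (by 2.44), and Csf1 fell by 2.37, with a median of 1.97 against -0.06 (of all genes, 10.4% rose and 10.9% fell). Btk, a kinase of this pathway, did not pass and had lower means in tumors (-0.72 and -0.70). Csf1r stood between 4.89 and 6.79 in all MSCs and between 9.19 and 13.88 in tumors, highest in tumor 4. The ligand Csf1 stood between 11.86 and 12.58 in WT MSCs and between 7.78 and 10.79 in tumors. The count of 4 dropped to 2 without the library labelled KO_MSC 1 and to 0 without KO_MSC 1 and 2. The count of 5 dropped to 3 without WT_MSC 1, the call of Csf1 was lost without any 1 of the WT MSC libraries, and 2 genes fell without tumor 4.

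The other lists cover further steps of osteoclast formation and are read against the same shares of all genes. Of 9 transcription factors of osteoclast formation, 2 rose against KO MSCs, Spi1 (PU.1, of the macrophage lineage) by 2.93 and Irf8 (a factor that restrains osteoclast formation) by 1.47. Against WT MSCs 3 rose, Spi1 by 3.33, Id2 by 3.10 and Prdm1 (Blimp1) by 2.14, and 0 fell in either comparison. Mitf, a partner of PU.1, had a difference of 1.61 against KO MSCs (adjusted p = 0.115, limma). The 2 against KO MSCs became 0 without KO_MSC 1, KO_MSC 2 or any 1 of tumors 3 to 6, and 1 without KO_MSC 3 or tumor 1. The 3 against WT MSCs became 1 without WT_MSC 1.

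Of 6 fusion genes, 1 rose in each comparison, Sirpa (a receptor for CD47), by 2.86 against KO MSCs and 2.02 against WT MSCs. Ocstamp, a partner of Dcstamp, and Atp6v0d2, a proton pump subunit needed for fusion, did not pass (differences of 2.72 and 3.73 against KO MSCs, adjusted p = 0.166 and 0.0962, limma). Atp6v0d2 stood at 12.13 in tumor 3 and at 5.82 in tumor 2. The Sirpa call was lost without any 1 of the KO MSCs or tumors 1, 5 or 6 against KO MSCs, and without any 1 of the WT MSCs or tumors 5 or 6 against WT MSCs. Leaving out tumor 2 called 2 fusion genes against KO MSCs and 3 against WT MSCs, and leaving out tumor 4 called 3 against WT MSCs.

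Of 13 genes of acid secretion and resorption, 1 rose in each comparison: Itgb3 (the beta 3 integrin that anchors osteoclasts) by 2.49 against KO MSCs and Atp6v1c1 (a proton pump subunit) by 1.66 against WT MSCs. Against WT MSCs, 1 of 13 stood beside 10.4% of all genes called higher, so the count is no result about this list. Car2, the carbonic anhydrase that supplies protons, had a lower mean in tumors, with a difference of -4.71 against KO MSCs (adjusted p = 0.0657, limma) and -3.85 against WT MSCs (adjusted p = 0.0709, limma). The call of 1 against KO MSCs was lost without any 1 library other than tumor 2, without which 2 passed, and that against WT MSCs was lost without WT_MSC 1 and became 2 without tumor 2.

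No gene listed here for RANK signal transduction passed as higher in tumors in the fits with all libraries of a comparison. Of 15 signal transduction genes, 0 passed in either direction against KO MSCs, and 0 rose and 3 fell against WT MSCs: Fos by 3.95, Traf2 by 1.66 and Chuk (IKK alpha) by 0.98. The lowest adjusted p against KO MSCs was that of Fos (-2.26, adjusted p = 0.0729, limma). Next were Ppp3ca, with a higher mean in tumors (1.62, adjusted p = 0.0783, limma), and Chuk, with a lower mean (-1.20, adjusted p = 0.0815, limma). Against WT MSCs, 1 gene fell without any 1 of the WT MSCs, and 5 fell without tumor 1. Against KO MSCs, 1 fell without the library labelled KO_MSC 3 and 1 rose without tumor 2. Of 9 receptors through which stromal cells are induced to make RANKL, 5 fell against WT MSCs: Il1r1 by 2.84, Osmr by 2.77, Il6st by 2.55, Tnfrsf1a by 2.09 and Ptger4 by 1.50. Against KO MSCs Il1r1 fell by 1.95, and among fits that left out 1 library a gene of this list passed only in those without KO_MSC 3 or without tumor 1. In KO against WT MSCs, limma called 0 genes of all 6 lists.

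Markers of other cell types also differed between tumors and MSCs. The log2 of the summed level of 12 macrophage markers was 10.06 to 11.15 in MSCs and 14.35, 16.55, 15.34, 19.63, 17.27 and 16.61 in tumors 1 to 6. Of these markers 10 rose against KO MSCs and 11 against WT MSCs (limma), and C1qa stood between 5.26 and 6.21 in MSCs and between 9.84 and 15.04 in tumors. Ptprc (CD45) was at the floor in 3 of 6 MSC libraries, reached 7.60 in the library labelled KO_MSC 1, and lay between 7.11 and 10.67 in tumors. Because floors differ between batches, heights above the floor are given too. They were 3.78 in KO_MSC 1 and 3.29, 3.82, 3.93, 3.77, 4.98 and 3.46 in tumors 1 to 6. Limma called Ptprc higher against WT MSCs (by 2.57) but not against KO MSCs (2.30). The summed level of the 6 osteoclast genes was 17.08, 11.36, 18.45, 13.48, 15.19 and 14.52 in tumors 1 to 6. Tumors 1 and 3, highest for osteoclast genes, were thus the 2 lowest for macrophage markers, and tumor 4, highest for macrophage markers, was above only tumor 2 for osteoclast genes. The order for macrophage markers also follows the batches, since tumors 1 to 3, of batch 1, were all below tumors 4 to 6, of batch 2.

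The 8 markers of LepR+ stroma summed to between 17.46 and 20.03 in MSCs and between 10.17 and 13.14 in tumors, and all 8 fell against WT MSCs and 5 against KO MSCs (limma). The mean of Tnfsf11 was also lower in tumors than in MSCs, but tumors 1, 3 and 6 were inside its MSC range. Tumor 6 had the highest Tnfsf11 value of the tumors, 8.49, and the lowest summed level of this list, 10.17. The MSCs were sorted for LepR and CD140a, and the genes of both, Lepr and Pdgfra, are in this list. Because a sum follows its most abundant genes, the mean stabilized value of the 10 osteoblast markers is given too. It was 9.44 to 12.17 in MSCs and 14.10, 8.27, 12.56, 9.07, 9.26 and 12.42 in tumors 1 to 6, high in tumors 1, 3 and 6, as was Tnfsf11. The same markers summed to between 14.44 and 17.98 in MSCs and to 20.13, 17.45, 18.53, 18.50, 15.85 and 18.25 in tumors 1 to 6, with 0 of 10 called in either tumor comparison. The part of macrophage, stromal and osteoblast cells in the differences of RANK, RANKL and the osteoclast genes was not tested.

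**Figure D5:**
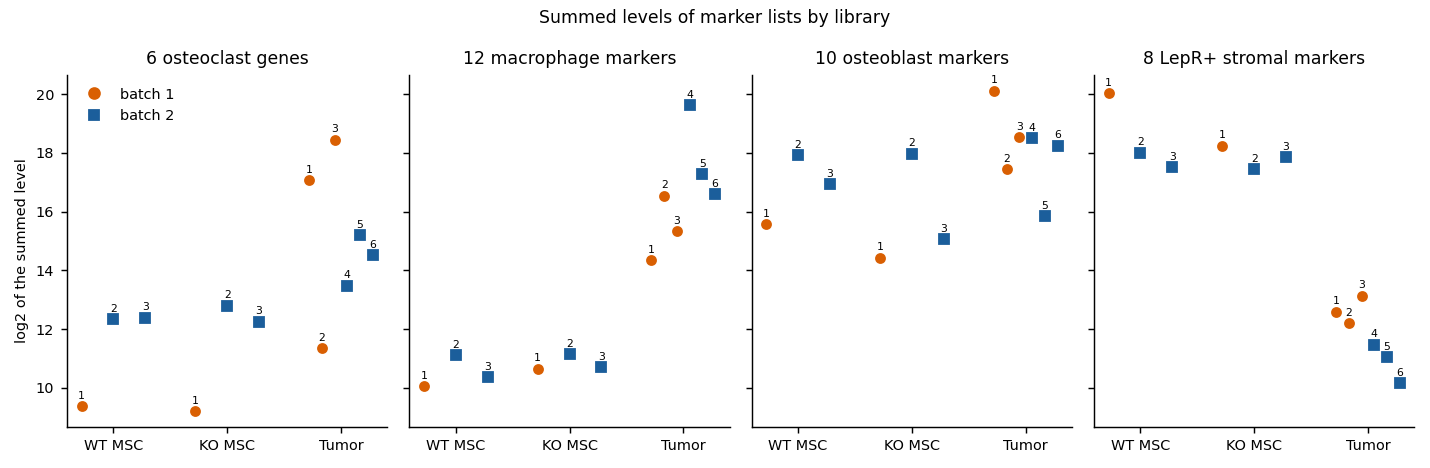
Log2 of the summed level (y axis) of the 6 osteoclast genes and of 3 marker lists in every library by group; numbers are replicate numbers, circles are batch 1 and squares are batch 2. Macrophage markers are above all MSCs in all 6 tumors and LepR+ stromal markers below them, while osteoclast genes are highest in tumors 1 and 3.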

How the data were processed

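RNA of the 12 libraries was amplified with SMART-Seq v4, a low-input cDNA kit, then sheared and turned into libraries without strand marks, per the labels' protocols. TopHat2 2.0.13, Cufflinks 2.2.1, Cuffdiff and build mm10 are named, per the submitters' processing notes. How alignments became values is not given in the sources used here. Log2 values of 24421 genes, titled as variance-stabilized and batch-adjusted, were deposited by the authors. The authors' other deposited table, titled as normalized counts, holds a score: for its 18949 genes each entry is the stabilized value times 100, rounded, over a factor common to the library. No reads could be recovered, so the depth per library is unknown and no count test or pseudocount was used. Columns of libraries other than the 12 numbered 0.

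Libraries of 1 batch shared at least 545 exactly equal values, and libraries of different batches at most 1. The floors of a gene in both batches lay symmetrically about 4.751553 in 100% of 8352 genes (tolerance 1e-05). From this the floor, and the height above it, was computed for 11467 genes.

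The test was limma 3.58.1 (R 4.3.3), with lmFit and a trended eBayes, two-sided and without covariates, run separately on the groups of each comparison. It covered 18948 genes that varied and were in both tables, with Benjamini-Hochberg adjustment and a threshold of 0.05, and the script was tested on simulated data. Separate animals are not named in the labels: the p-values reflect the spread among libraries only, and part of it may be technical. The marker level of a library is log2 of the sum of 2 to the power of each stabilized value. All 10 genes were named in every comparison; of pathway lists, passing genes and otherwise up to 3 of lowest adjusted p; the 3 genes of highest r per member; and of markers, those of highest mean and those at the floor. Values of C1qa, Btk and Atp6v0d2 were added after their values were seen. Heights above the floor and the fit without the libraries labelled KO_MSC 1 and 2 were chosen after seeing the data. The members, lists and tests were chosen with earlier results of these data known. Positions are from GENCODE vM21 and promoters from RefSeq.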

Additional observations from a re-analysis of the deposited data

How the results depend on the processing

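The depth behind the values is unknown, and Tnfrsf11a, Dcstamp, Oscar and Calcr were at the floor in 4 MSC libraries, which limits what their differences can show. Member differences kept their sign in every alternative run for the tumor comparisons. Tumor against KO MSCs called 944 genes and 1 member, Tnfrsf11a. It called 1481 genes with quantile scaling, 1606 with a minimum group mean of log2 of 100, 1923 with all 12 libraries in 1 fit, 4821 with library weights, 3247 in batch 1, 27 in batch 2 and 94 without the libraries labelled KO_MSC 1 and 2. Members called were 2 with upper-quartile scaling, the minimum mean or all 12 libraries, 4 with library weights, and 0 in either batch or without KO_MSC 1 and 2. Leaving out 1 library gave 113 to 1627 genes and 0 to 3 members. Tnfrsf11a passed in 14 of 23 alternatives (adjusted p 0.00333 to 0.238). Tumor against WT MSCs called 4033 genes, 540 in batch 2 and 6821 with library weights, and 1856 to 4737 when 1 library was left out. Its members called were 4 with the minimum mean, 5 with library weights, 0 in either batch and 0 to 4 when 1 library was left out, and Tnfrsf11a passed in 17 of 22 (0.00125 to 0.244). The weights of 2 of 3 comparisons stopped before they converged.

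Deviations of same-numbered WT and KO MSCs from their group means correlated at 0.24, 0.15 and -0.15. Those of differently numbered ones correlated at -0.32 to 0.30. With so few libraries per group, these values cannot show whether the numbers pair the samples. With the replicate block, 34 genes and 0 members were called in tumor against KO MSCs (Tnfrsf11a 2.47, adjusted p = 0.205, limma) and 1445 genes and 0 members against WT MSCs (2.41, adjusted p = 0.0850); tumors 4 to 6, whose numbers no MSC library has, add nothing to these differences.

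KO against WT MSCs called 0 genes, 43 in batch 2, 2447 with library weights and 3171, with 1 member, without KO_MSC 1 and 2. Its member differences, none of which had passed, changed sign in some alternatives. With library weights they were -0.0022 for Dcstamp, -0.015 for Oscar and 0.37 for Tnfrsf11b. Without KO_MSC 1 and 2 they were 1.18 for Ctsk, 0.80 for Mmp9, 0.36 for Tnfrsf11a and 0.55 for Tnfsf11. Ctsk was 0.059 in batch 2, Nfatc1 0.62 in batch 1, and Tnfrsf11a 0.048 with upper-quartile and 0.29 with quantile scaling. Leaving out 1 library gave -0.35 to 1.56 for Acp5, -0.12 to 0.18 for Calcr, -1.42 to 0.99 for Ctsk, -0.61 to 0.66 for Dcstamp, -1.85 to 0.19 for Mmp9, -0.80 to 0.81 for Oscar, -0.42 to 0.36 for Tnfrsf11a and -0.98 to 0.040 for Tnfrsf11b. Beyond what the alternatives' own construction changes, the cause was not tested.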

Other observations

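Among tumors, Pth1r, the receptor through which parathyroid hormone induces RANKL in osteoblast-lineage cells, had stabilized values of 13.37, 11.07 and 11.66 in tumors 1, 3 and 6 and of 6.28, 6.75 and 5.48 in tumors 2, 4 and 5. Tnfsf11 divided the tumors the same way, with 8.21, 8.35 and 8.49 in tumors 1, 3 and 6 and 5.88, 5.26 and 5.30 in the others. The mean stabilized value of the 10 osteoblast markers did so too, with 14.10, 12.56 and 12.42 in tumors 1, 3 and 6 and 8.27, 9.07 and 9.26 in tumors 2, 4 and 5. In MSCs Pth1r lay between 9.41 and 11.59. Pth1r was chosen after its values were seen, and the relation and the part of osteoblast-lineage cells in it were not tested.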
